A study of Mus musculus with 15 samples.

Results

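The 50 genes described here encode the machinery that copies DNA in S phase, and they were taken by symbol from the 21669 genes with a symbol in the deposited expression table. They cover the replicative helicase, origin recognition and licensing, helicase activation, fork protection, the polymerases and primase, the sliding clamp and its loader, single-strand binding, Okazaki fragment maturation, nucleotide supply, cyclin E and replication-coupled chromatin assembly. All 50 were measured in every library and passed the filter on low values, an RPKM (reads per kilobase of gene length, per 1000000 reads) of at least 1 in at least 3 libraries.

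In G1, the origin recognition complex, Cdc6 and Cdt1 load the MCM helicase onto origins, and geminin (Gmnn) binds Cdt1 to stop a second loading. In S phase, cyclin E and other kinase activities turn the loaded helicase on with Cdc45 and the GINS complex, and primase, polymerases, the clamp Pcna and the RFC loader then copy both strands. A resting B cell lies outside this cycle, and an activated B cell divides several times before it becomes a plasmablast, a dividing cell that already secretes antibody.

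RNA was sequenced from splenic B cells of young adult female wild-type C57BL/6J mice, in 5 groups. Naive CD43- B cells (nB) were taken without culture. B cells cultured ex vivo for 3 days with LPS, Il2 and Il5 were sorted as activated B cells (actB, B220+GL7+CD138-) or as plasmablasts (Pb, CD138+), each after treatment with the vehicle DMSO or with GSK343, an inhibitor of the histone H3K27 methyltransferase EZH2. The labels of the 3 Pb GSK343 libraries name Il6 in place of Il5, so that if these labels hold, the drug and the cytokine cannot be told apart in Pb. The actB and Pb were separated by surface markers, not by division number or cell cycle phase, and in such bulk samples fewer cells in S phase and less RNA per cell cannot be told apart.

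Libraries held 19421830 to 26307413 reads counted in genes. The columns of nB replicates 1 and 2 held the same read number for 79.5% of 14442 genes and differed by less than the sampling noise, so they were counted as 1 sample, and nB has n = 2 and every other group n = 3. The replicate 2 libraries stood apart for the genes described here: they held the lowest of the 3 values for 48 of 50 genes in actB DMSO, 49 in actB GSK343, 43 in Pb DMSO and 49 in Pb GSK343, where the shares over all genes tested were 42.8%, 40.4%, 42.5% and 43.7%. Summed levels of 6 B cell markers ran from 3374 to 3499 RPKM in nB, 1850 to 2138 in actB DMSO and 922 to 942 in Pb DMSO, and those of 6 plasmablast markers were 215 to 231, 485 to 522 and 3083 to 3234. The 4 activated B cell markers summed to 136 to 159 RPKM in nB, 289 to 340 in actB DMSO and 54.5 to 60.5 in Pb DMSO. Of these 4, Myc went the other way on activation, with means of 72.0 RPKM in nB and 33.8 in actB DMSO. Myeloid markers, 8 in number, summed to 185 to 230 RPKM in nB, 4.14 to 5.44 in actB DMSO and 0.484 to 0.932 in Pb DMSO, and the 8 T and NK cell markers to 44.4 to 46.3, 3.94 to 5.31 and 1.61 to 2.24. Of the myeloid markers, Elane and S100a8 were at 0 in all actB DMSO libraries. Itgam was not lower there than in nB, with means of 4.27 and 4.02 RPKM. The 3 erythroid markers measured summed to 29.3 to 135 RPKM in nB, 8.95 to 12.7 in actB DMSO and 1.04 to 1.67 in Pb DMSO. Most of the nB sum was Hbb-b1, which differed widely between the nB libraries, at 29.0 and 129 RPKM. The part of these other cells in the differences from nB was not tested. Coordinates below are of the gene in mm9 as annotated. Exons of 15 of the 50 genes overlap those of a gene on the other strand, and since the use of strand in counting was not stated, the levels of Mcm7, Orc1, Orc2, Cdc45, Gins2, Timeless, Pole, Rfc4, Rfc5, Fen1, Lig1, Tyms, Tk1, Ccne2 and Chaf1a are less certain than the others.

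Promoter sequences are given first because the E2F family of transcription factors is known for switching on replication genes at the entry to S phase. RefSeq promoters (GRCm38.p6) were matched for 40 of the 50 genes, 46 promoters in all, and were placed in mm9, the build of the deposited table, by an exact match of their letters. Ccne2, Gins1, Gins2, Gins4, Gmnn, Mcm4, Pole, Prim2, Rfc2 and Tipin had no match. The 250 bases before each start were searched on both strands for 4 E2F words (TTTCCCGC, TTTCGCGC, TTTGCCGC and TTTGGCGC), and 8 of the 46 promoters (17.4%) held at least 1, against 611 of all 32851 promoters (1.86%). The CCAAT box, the word CCAAT, was in 25 of the 46 (54.3%) against 33.8% of all, the word TTTGAA, the core of the cell cycle homology region, in 5 (10.9%) against 16.0%, and the E-box CACGTG in 6 (13.0%) against 6.02%. A match is a description of letters and not a binding site, and words on opposite strands can overlap, as in Mcm6 and Mcm5.

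The stretches with an E2F word are shown in capitals for the word and 11 bases on either side where the window allows, 5′ to 3′ on the gene's strand. The stretches of Mcm7 and Rfc3 lie whole in annotated exons, that of Orc1 by 23 bases, and the other stretches outside exons of the mm9 annotation.
Mcm6, chr1:130256370-130256403, minus strand: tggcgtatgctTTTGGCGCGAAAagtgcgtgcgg
Mcm6, chr1:130256311-130256340, minus strand: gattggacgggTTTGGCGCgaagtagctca
Mcm5, chr8:77633244-77633277, plus strand: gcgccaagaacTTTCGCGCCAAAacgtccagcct
Mcm7, chr5:138613258-138613287, minus strand: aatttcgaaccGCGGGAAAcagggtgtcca
Orc1, chr4:108252021-108252050, plus strand: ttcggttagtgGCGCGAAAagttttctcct
Cdc6, chr11:98769316-98769345, plus strand: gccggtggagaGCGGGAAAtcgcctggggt
Gins3, chr8:98157407-98157436, plus strand: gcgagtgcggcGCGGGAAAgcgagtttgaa
Pola1, chrX:90877614-90877643, minus strand: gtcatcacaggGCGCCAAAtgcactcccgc
Rfc3, chr5:152453784-152453804, minus strand: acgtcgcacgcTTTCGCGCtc

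Of these 8 genes, 3 encode helicase subunits and the others serve licensing (Orc1, Cdc6), GINS, polymerase alpha and the clamp loader. The 60 bases just before the RefSeq start are also shown for Mcm10 and Rrm2, whose RNA rose most on activation, and for Cdt1, whose RNA did not rise, with CCAAT in capitals.
Mcm10, chr2:4933838-4933897, minus strand: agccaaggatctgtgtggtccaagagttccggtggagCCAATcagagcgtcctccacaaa
Rrm2, chr12:25393059-25393118, plus strand: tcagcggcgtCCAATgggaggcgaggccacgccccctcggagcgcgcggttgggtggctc
Cdt1, chr8:125091855-125091914, plus strand: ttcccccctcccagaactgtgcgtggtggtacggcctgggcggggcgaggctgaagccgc
Of the Rrm2 stretch, 13 bases lie in exons of the mm9 annotation, and of the other two 0. The Cdt1 stretch holds no CCAAT, and none of these 3 promoters held an E2F word. These 3 genes do not stand for the rest. Of the 40 matched genes, 24 held CCAAT in the bases searched. Cdc6, Tyms, Pole2 and Chaf1b, which rose on activation, held none there, and Rfc1, which fell, held 1. Pold1, which did not rise, held none, as Cdt1 did. Whether CCAAT goes with the rise was not tested.

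**Figure D1:**
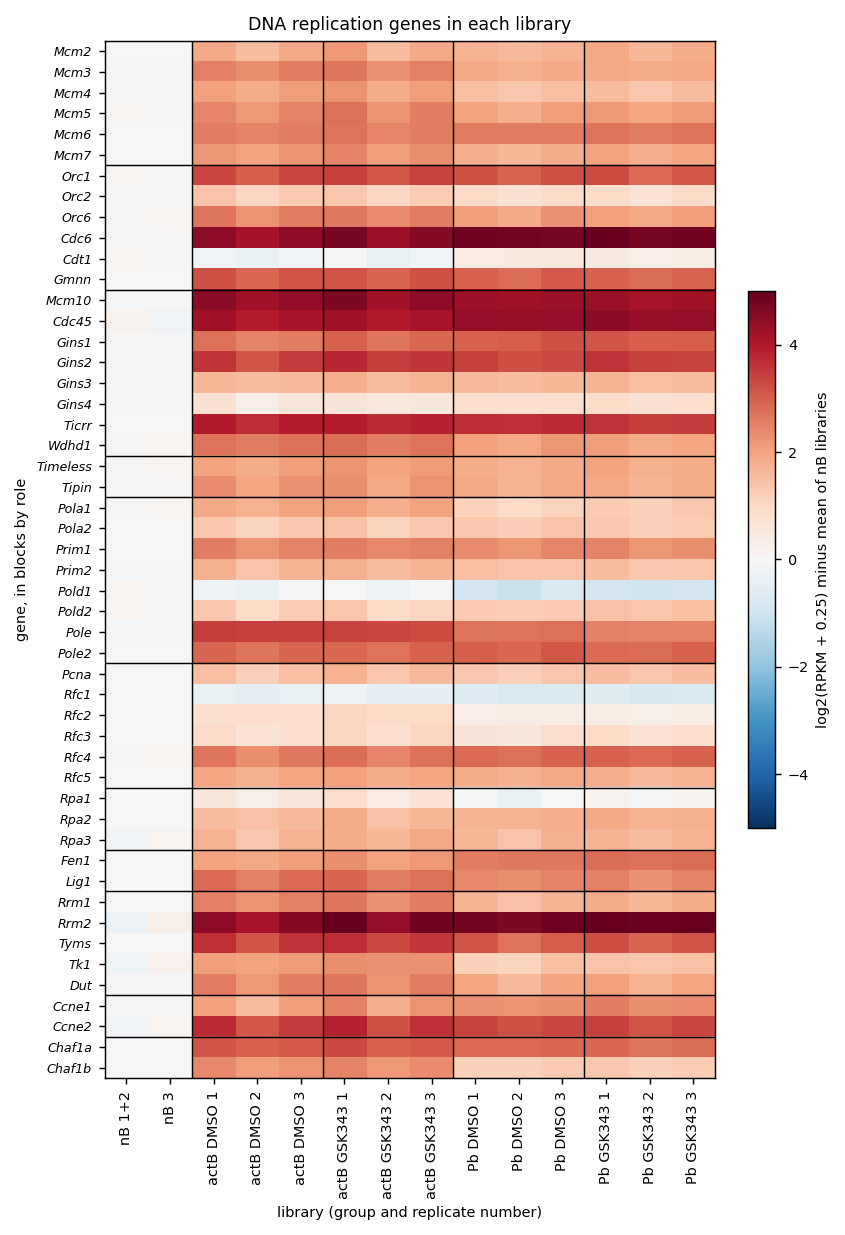
Each row is a gene, in blocks by role, and each column a library, with the colour giving log2(RPKM + 0.25) minus the mean of the nB libraries (a log2 difference). Cdt1, Pold1 and Rfc1 stay pale or blue in the actB DMSO columns, where 47 of the 50 genes are red.

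Nearly the whole machinery was higher after activation. In actB DMSO against nB, 47 of the 50 genes were higher and 2 lower (limma, adjusted p under 0.05), where 40.9% of the 11299 genes tested were higher and 36.3% lower. Their median log2 fold change was 2.24, against 0.05 over all genes tested. The genes together took 0.207% to 0.210% of the reads of an nB library and 0.679% to 0.805% of an actB DMSO library. For 47 genes every actB DMSO library lay above both nB libraries (44.2% of all genes tested), and for 2 every one lay below (39.2%).

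The largest rises were in genes that load, switch on or feed the fork. Mcm10 (chr2:4910760-4933837, minus strand), which acts when the loaded helicase is turned on, stood at 0.560 and 0.631 RPKM in nB and at 19.2, 15.8 and 18.1 RPKM in actB DMSO. The groups lay far apart, with a log2 fold change of 4.41 ± 0.12 (SE; adjusted p = 7.99e-12), a 21.2-fold rise on the scale of RPKM + 0.25. Rrm2 (chr12:25393106-25399011, plus strand), the small subunit of ribonucleotide reductase, which makes the deoxynucleotides, stood at 5.46 and 8.13 RPKM in nB and at 155, 121 and 165 RPKM in actB DMSO. Its log2 fold change was 4.40 ± 0.19 (adjusted p = 4.36e-10), and the nB libraries themselves differed more for it than for Mcm10. Cdc6, the loader of the helicase, went from 0.824 and 0.915 RPKM to 24.8, 19.7 and 24.5 RPKM, a log2 fold change of 4.37 ± 0.12. Cdc45, a part of the active helicase, rose by 4.09 ± 0.11 on the log2 scale, and Ticrr, which recruits it, by 3.86 ± 0.09. Ticrr had no match in the mm9 annotation, and Cdc45 overlaps Ufd1l.

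The 6 subunits of the MCM2-7 ring rose by similar amounts, with log2 fold changes from 1.78 (Mcm2) to 2.54 (Mcm6). Mcm6 stood at 16.0 and 16.6 RPKM in nB and at 97.3, 92.0 and 98.9 RPKM in actB DMSO. In nB these 6 genes already had 16.0 to 29.7 RPKM, well above the genes that activate the ring: of the 8 helicase activation genes, 7 had under 8 RPKM in nB and Gins4 had 19.6 and 20.8 RPKM. Mcm7, which also hosts the microRNA genes Mir25 and Mir93, rose by 2.15 ± 0.11.

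Licensing genes were split. Orc1, the cell-cycle-dependent subunit of the origin recognition complex, rose by 3.23 ± 0.15 on the log2 scale, Orc6 by 2.51 ± 0.13 and Orc2 by 1.28 ± 0.12. Gmnn, the inhibitor of Cdt1, stood at 6.51 and 6.76 RPKM in nB and at 62.7, 50.6 and 61.4 RPKM in actB DMSO. Cdt1 itself stood at 18.8 and 16.3 RPKM in nB and at 15.5, 13.6 and 15.8 RPKM in actB DMSO. Its libraries did not overlap between the groups but the gap was small, with a log2 fold change of -0.22 ± 0.09 (limma, adjusted p = 0.0398). The fall of Cdt1 was lost without the merged nB library (adjusted p = 0.334) and without actB DMSO replicate 2 (adjusted p = 0.133). It was also lost with the compared groups alone (0.0909) and without the replicate 2 libraries of all cultured groups (0.0846).

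Among the polymerases, Pole, the catalytic subunit of polymerase epsilon on the leading strand, rose most, from 2.14 and 2.28 RPKM in nB to 26.5, 26.4 and 26.3 RPKM in actB DMSO (log2 fold change 3.44 ± 0.05). The second subunit, Pole2, rose by 2.83 ± 0.09, and the primase and polymerase alpha genes Prim1, Pola1, Prim2 and Pola2 by 2.42, 1.89, 1.64 and 1.28. Pold1, the catalytic subunit of polymerase delta on the lagging strand, had 49.0 and 42.1 RPKM in nB and 38.5, 36.2 and 43.4 RPKM in actB DMSO. These groups overlapped, and the log2 fold change of -0.21 ± 0.10 did not pass the test (adjusted p = 0.0839), although it did without nB replicate 3 (adjusted p = 0.0448) and without actB DMSO replicate 3 (adjusted p = 0.0324). It also passed with median scaling (adjusted p = 0.0212), quantile normalization (0.00539), edgeR with TMM (0.0301) or RLE factors (0.0137) and all 15 columns (0.0238). Its partner Pold2 rose by 1.21 ± 0.12.

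The clamp loader showed the same unevenness. Rfc1, the large subunit, stood at 28.3 and 28.8 RPKM in nB and at 22.8, 20.6 and 22.2 RPKM in actB DMSO, all lower, with a log2 fold change of -0.38 ± 0.08 (adjusted p = 0.000513). The 4 small subunits rose, Rfc4 by 2.53 and Rfc5 by 1.92 and Rfc2 and Rfc3 each by 0.83 on the log2 scale. Pcna, the clamp itself, was high in nB, at 115 and 117 RPKM, and reached 331, 265 and 329 RPKM in actB DMSO. Its log2 fold change of 1.40 ± 0.11 was below the median of the 50 genes, although it had the highest level of them all in both groups.

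Of the RPA trimer that coats single-stranded DNA, Rpa2 and Rpa3 rose by 1.55 and 1.60 on the log2 scale and the large subunit Rpa1 by 0.49 ± 0.15 (adjusted p = 0.00899, and 0.0598 without nB replicate 3). Rpa1 was already at 58.4 and 55.9 RPKM in nB. The flap nuclease Fen1 and the ligase Lig1, which finish Okazaki fragments, rose by 2.01 and 2.71. Thymidylate synthase Tyms rose by 3.47, the dUTPase Dut and the large reductase subunit Rrm1 each by 2.44, and thymidine kinase Tk1 by 2.08. Ccne2 rose by 3.43 and Ccne1 by 1.91, Timeless and Tipin of the fork protection complex by 1.99 and 2.22, and the chromatin assembly factor 1 genes Chaf1a and Chaf1b by 3.07 and 2.25.

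**Figure D2:**
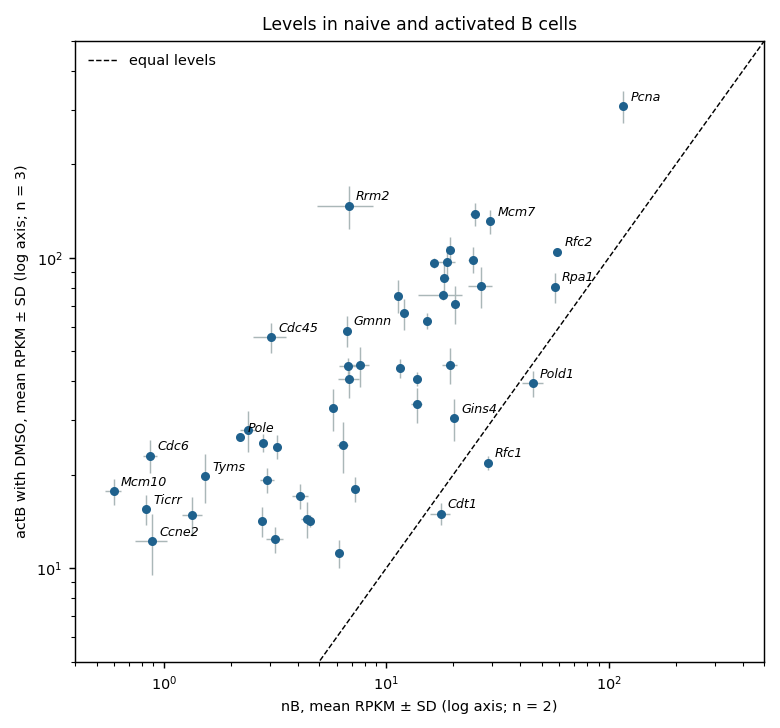
Mean RPKM ± SD of each of the 50 genes in nB (horizontal log axis, n = 2) and in actB DMSO (vertical log axis, n = 3), with the dashed line marking equal levels. Cdt1, Pold1 and Rfc1 lie below the line, and genes with the lowest nB levels, such as Mcm10, Ticrr and Cdc6, lie farthest above it.

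Genes of related function went the same way. Of 40 other replication genes, 34 were higher and 4 lower in actB DMSO than in nB, with a median log2 fold change of 1.21. Of all genes tested, 40.9% were higher and 36.3% lower. Topoisomerase Top2a rose by 4.56 ± 0.09, and the p53-inducible reductase subunit Rrm2b fell by 1.75 on the log2 scale. All 20 mitosis genes were higher, with a median log2 fold change of 4.26, and Ccnb1, the mitotic cyclin, rose by 4.97 ± 0.19.

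Between actB DMSO and Pb DMSO the genes went both ways, as all genes tested did. In Pb DMSO, 8 of the 50 were higher and 21 lower (limma, adjusted p under 0.05), where 27.3% of all genes tested were higher and 42.4% lower. Their median log2 fold change was -0.14, and that over all genes tested was -0.12. Without actB DMSO replicate 2 these medians were -0.25 and -0.12, and without actB DMSO replicate 1 they were -0.08 and -0.11. When each library was scaled to its median instead, the median over all genes was -0.0048, 12 of the 50 genes were higher and 17 lower, and 49.4% of all called genes were higher, against 39.2% as deposited. With the number as a block in the fit, 11 were higher and 25 lower, where 29.7% of all genes were higher and 45.7% lower. The groups did not overlap for 31 genes, 11 above (28.6% of all genes tested) and 20 below (43.3%).

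The 8 higher genes included 2 of the 6 licensing genes and 3 of the 8 helicase activation genes, where 27.3% of all genes tested were higher. Cdt1 (chr8:125091915-125097028, plus strand) stood at 15.5, 13.6 and 15.8 RPKM in actB DMSO and at 23.6, 24.3 and 25.6 RPKM in Pb DMSO. This was the largest rise of the 50, a log2 fold change of 0.70 ± 0.08 (adjusted p = 7.12e-06), in the gene that had not risen on activation. Cdc6 went from 24.8, 19.7 and 24.5 RPKM to 31.2, 30.2 and 29.9 RPKM (0.41 ± 0.11, adjusted p = 0.0043). Of the GINS complex, Gins1 rose by 0.44 ± 0.09 and Gins4 by 0.29 ± 0.09, while Gins2 and Gins3 were at -0.09 and 0.02 and did not pass the test. Cdc45 rose by 0.29 ± 0.10 (adjusted p = 0.0201).

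Fen1, the flap nuclease, stood at 62.4, 58.8 and 66.4 RPKM in actB DMSO and at 92.3, 95.4 and 96.9 RPKM in Pb DMSO, a log2 fold change of 0.60 ± 0.07 (adjusted p = 5.45e-06). Lig1, which acts after it, fell by 0.31 ± 0.10 (adjusted p = 0.0175). Rfc4, which overlaps the translation factor gene Eif4a2, rose by 0.31 ± 0.11 and Rpa2 by 0.19 ± 0.08, the smallest of the 8 rises.

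The 21 lower genes included the catalytic subunits of all 3 replicative polymerases. These were 3 of the 8 polymerase and primase genes (37.5%), where 42.4% of all genes tested were lower. Pole (chr5:110715325-110766493, plus strand) stood at 26.5, 26.4 and 26.3 RPKM in actB DMSO and at 15.7, 15.8 and 16.2 RPKM in Pb DMSO, a log2 fold change of -0.72 ± 0.04 (adjusted p = 1.61e-08). Pola1, the catalytic subunit of polymerase alpha, fell from 12.5, 11.1 and 13.5 RPKM to 7.38, 6.61 and 7.12 RPKM (-0.79 ± 0.09), and Pold1 from 38.5, 36.2 and 43.4 RPKM to 23.5, 21.2 and 26.8 RPKM (-0.72 ± 0.09). The groups did not overlap for any of these 3 genes. The other 5 polymerase and primase genes did not pass the test, with log2 fold changes from -0.21 (Prim2) to 0.17 (Pole2).

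Nucleotide supply genes fell too, 4 of 5, where 42.4% of all genes tested were lower. Rrm1 went from 111, 93.7 and 113 RPKM in actB DMSO to 63.7, 53.4 and 63.4 RPKM in Pb DMSO (-0.81 ± 0.11, adjusted p = 2.84e-05), Tk1 from 76.4, 72.8 and 78.6 RPKM to 41.0, 39.1 and 51.4 RPKM (-0.80 ± 0.11), and Tyms and Dut by 0.51 and 0.58 on the log2 scale. Rrm2, the partner of Rrm1, had 155, 121 and 165 RPKM in actB DMSO and 192, 174 and 200 RPKM in Pb DMSO, a log2 fold change of 0.37 ± 0.17 that did not pass the test (adjusted p = 0.0707) but did with the replicate number as a block (adjusted p = 0.00452), with median scaling (0.0198), with edgeR and TMM (0.0268) or RLE factors (0.013), and with the compared groups alone (0.0402).

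Chaf1b (chr16:93884146-93906360, plus strand), a subunit of chromatin assembly factor 1, had the largest fall of the 50. It stood at 15.7, 12.6 and 14.2 RPKM in actB DMSO and at 6.72, 6.64 and 7.15 RPKM in Pb DMSO, a log2 fold change of -1.02 ± 0.09 (adjusted p = 5.53e-07). Chaf1a fell by 0.23 ± 0.08 (adjusted p = 0.025). Of the MCM ring, Mcm3, Mcm4, Mcm5 and Mcm7 fell by 0.60, 0.55, 0.38 and 0.36, and Mcm2 (-0.09) and Mcm6 (0.07) did not pass the test. Orc2 and Orc6 fell by 0.38 and 0.42, Wdhd1, which tethers polymerase alpha to the helicase, by 0.63, Tipin by 0.36, Rpa1 by 0.62, and Rfc1 and Rfc2 by 0.33 and 0.48.

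Some of these calls were near the threshold. Leaving out 1 library at a time ended the calls of 7 genes (limma). Without actB DMSO replicate 1 the adjusted p was 0.068 for Lig1, 0.0574 for Mcm5, 0.0829 for Rpa2, 0.0973 for Chaf1a and 0.0705 for Tipin. Without actB DMSO replicate 2 it was 0.111 for Rfc4, 0.0864 for Cdc45 and 0.135 for Rpa2, and without actB DMSO replicate 3 it was 0.0699 for Lig1, 0.0674 for Mcm5, 0.059 for Chaf1a and 0.0556 for Tipin. Without Pb DMSO replicate 1 it was 0.051 for Cdc45, 0.0617 for Rpa2 and 0.0554 for Chaf1a, and without Pb DMSO replicate 2 it was 0.0652 for Lig1, 0.0708 for Mcm5, 0.0777 for Rpa2, 0.0623 for Chaf1a and 0.068 for Tipin. Without Pb DMSO replicate 3 it was 0.0908 for Rfc4, 0.0507 for Cdc45 and 0.127 for Rpa2. Each kept its direction. Conversely, 6 genes passed without 1 library: Prim2 (adjusted p = 0.00575), Timeless (0.0316), Gmnn (0.042) and Ticrr (0.0041), all lower, without actB DMSO replicate 2, and Ccne1 (0.0414) without actB DMSO replicate 3 and Pole2 (0.0392) without Pb DMSO replicate 2, both higher. In the blocked fit the adjusted p was 0.0113 for Gmnn, 0.0123 for Ticrr, 0.0149 for Timeless, 0.00869 for Prim2, 0.0066 for Pole2 and 0.0105 for Ccne1. Ccne1 and Pole2 also passed with median scaling (adjusted p = 0.0182 and 0.00581), quantile normalization (0.0226 and 0.00675), edgeR TMM (0.0323 and 0.0193) and edgeR RLE (0.0162 and 0.00517). Under these same settings, in order, Chaf1a lost its call (adjusted p = 0.191, 0.124, 0.0682 and 0.174). Lig1, Mcm5 and Tipin lost theirs with median scaling (adjusted p = 0.0891, 0.0664 and 0.064) and edgeR RLE (0.0749, 0.0546 and 0.052). Mcm6 passed as higher with median scaling (0.0157) and edgeR RLE (0.0144). Rpa2 lost its call with no filter (0.06) and Gins4 with the compared groups alone (0.058).

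**Figure D3:**
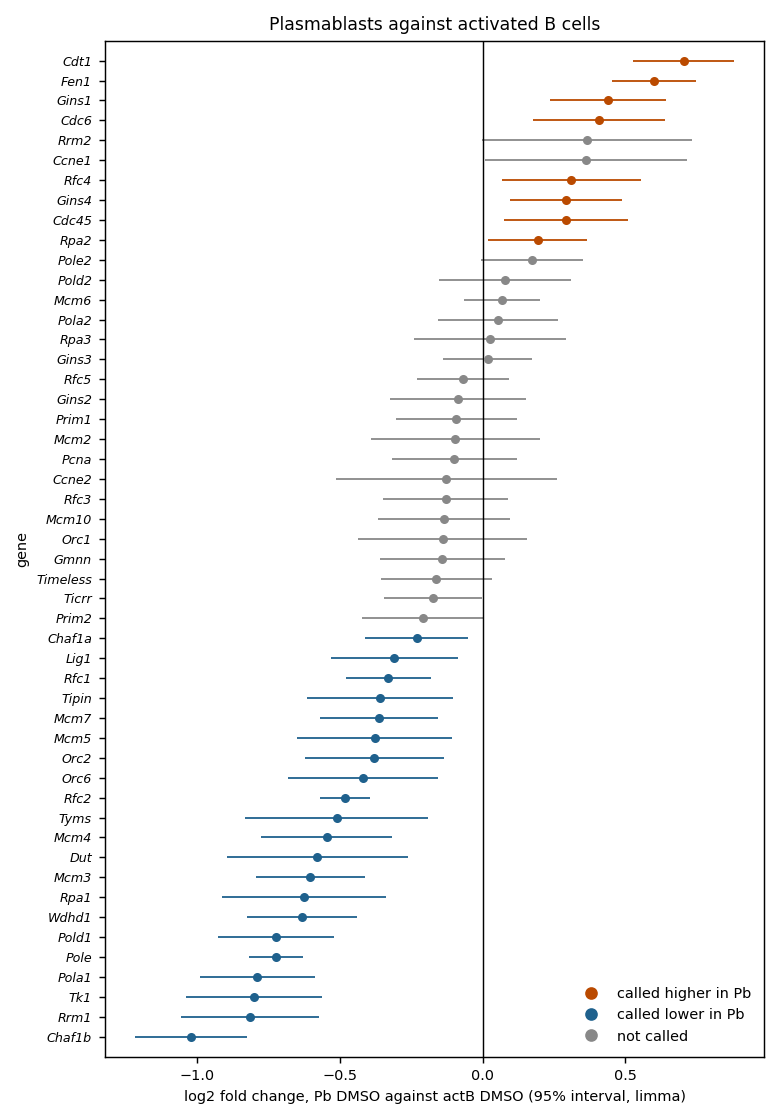
Points are the log2 fold changes of the 50 genes in Pb DMSO against actB DMSO from limma, bars their 95% intervals, and colours the calls at an adjusted p under 0.05. Cdt1 (0.70) and Fen1 (0.60) stand at the top and Chaf1b (-1.02) and Rrm1 (-0.81) at the bottom.

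In the pairs of partner subunits chosen here, the proportions differed between actB DMSO and Pb DMSO. A ratio of RPKM within a library does not depend on how the library was scaled. The pairs were chosen after their values were seen, so the ratios are descriptions with no test. Rrm2 over Rrm1 was 0.282 and 0.421 in nB, 1.40, 1.29 and 1.46 in actB DMSO, and 3.02, 3.26 and 3.15 in Pb DMSO, higher at each stage with no overlap. Chaf1a over Chaf1b was 0.984 and 1.04 in nB, 1.72, 1.87 and 1.79 in actB DMSO, and 3.21, 3.20 and 3.05 in Pb DMSO. Thus Chaf1a and Chaf1b were near parity only in nB among these 3 groups. Pold2 over Pold1 was 0.423 on average in nB, 1.15 in actB DMSO and 2.01 in Pb DMSO, and Rpa2 over Rpa1 was 0.239, 0.507 and 0.899.

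Other pairs did not run one way. Pole2 over Pole fell from 1.47 on average in nB to 0.932 in actB DMSO and stood at 1.74 in Pb DMSO, and Pola2 over Pola1 went from 2.32 to 1.46 to 2.66. Mcm6 over Mcm3 was 0.655 in nB and 0.695 in actB DMSO, where the libraries overlapped, and 1.11 in Pb DMSO. Tipin over Timeless moved least between actB DMSO (5.03 ± 0.378 SD) and Pb DMSO (4.39 ± 0.107 SD).

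**Figure D4:**
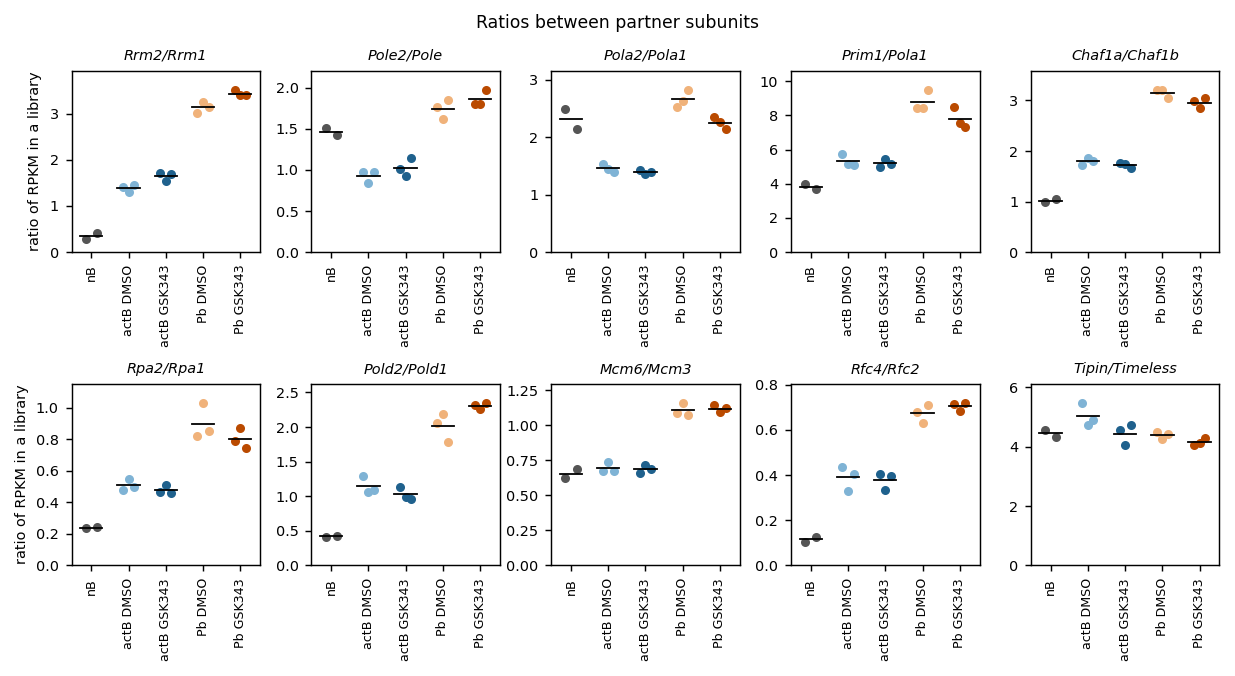
Each panel gives the ratio of the RPKM of a pair of genes in each library (points) and the group mean (line), from 0 upward, for nB (n = 2), and actB and Pb with DMSO or GSK343 (n = 3 each). Rrm2/Rrm1 rises from 0.352 in nB to 1.38 in actB DMSO and 3.14 in Pb DMSO. The pairs were chosen after their values were seen. That the Pb DMSO and actB DMSO points overlap in no panel therefore has no background to be read against.

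Plasmablasts also stood above naive cells. In Pb DMSO 47 of the 50 genes were higher than in nB and 2 lower, where 39.5% of all genes tested were higher and 41.1% lower, and the median log2 fold change was 1.86 against -0.02 over all genes. This comparison shares its nB libraries with that of actB and its Pb libraries with the one above. Pold1 (-0.93 ± 0.10) and Rfc1 (-0.71 ± 0.08) were the genes below nB, and every Pb DMSO library lay below both nB libraries for each. Rpa1, at 55.1, 44.9 and 56.8 RPKM, overlapped with nB and did not pass the test (-0.14 ± 0.15, adjusted p = 0.407), and Cdt1 was higher by 0.48 ± 0.09. Cdc6 and Rrm2 had the largest differences, 4.78 ± 0.12 and 4.77 ± 0.19. Of the other replication genes 32 of 40 were higher and 6 lower, and all 20 mitosis genes were higher. Against actB DMSO, 7 of the 40 other replication genes were higher and 19 lower in Pb DMSO, and 4 of the 20 mitosis genes were higher and 5 lower. Of all genes tested, 27.3% were higher and 42.4% lower in that comparison.

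Few of these genes were called with GSK343 in the fit without the replicate number as a block. The replicate 2 libraries stood apart for these genes more than for all genes tested, and this fit counts that as spread. Its shares for the 50 genes and for all genes, here and in Pb, are therefore not like for like. The blocked counts are given below. In actB, 1 of the 50 genes was higher with GSK343 and 0 lower (limma), where 8.2% of all genes tested were higher and 2.16% lower. An unadjusted p was under 0.05 for 3 of the 50, against 25.0% of all genes tested, and edgeR called 0 higher and 1 lower, Pole, against 7.32% and 3.81% of all genes. Log2 fold changes ran from -0.11 (Pole) to 0.32 (Rrm2), with a median of 0.07 against 0.03 over all genes, and the 95% intervals of the 50 genes lay between -0.30 and 0.69. The values were above 0 for 45 genes (57.8% of all genes tested), and for 33 after scaling each library to its median. This rested on single libraries: without actB DMSO replicate 2 the values were above 0 for 21 genes and their median was -0.02, without actB GSK343 replicate 1 for 24 with a median of -0.01, and without actB GSK343 replicate 2 for 49 with a median of 0.16. With actB DMSO replicate 1 or 3 left out the median was 0.11. Summed plasmablast markers were 550 to 669 RPKM in actB GSK343 against 485 to 522 with DMSO. Summed myeloid markers were 8.31 to 14.1 RPKM against 4.14 to 5.44. Most of this myeloid sum was Itgam, at a mean of 9.95 RPKM with GSK343 and 4.27 RPKM with DMSO. Lyz2, the next highest, averaged 0.772 and 0.422 RPKM. The part of these markers in the result was not tested. All 3 GSK343 to DMSO ratios within a replicate number went up for 26 genes and down for 3, Orc2, Tipin and Pole. The share of all genes tested that did so was not computed, so these counts have no background to be read against.

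The gene called was Rfc2 (chr5:135058560-135074198, plus strand), a small subunit of the clamp loader. It stood at 102, 105 and 106 RPKM in actB DMSO and at 119, 112 and 119 RPKM in actB GSK343. All GSK343 libraries lay above the DMSO libraries, with a log2 fold change of 0.15 ± 0.04 (adjusted p = 0.0305). The call was lost without actB DMSO replicate 1 (adjusted p = 0.107) or 3 (0.0662), without actB GSK343 replicate 1 (0.0953) or 3 (0.114), and with edgeR, and Fen1 passed too without actB GSK343 replicate 2 (0.23, adjusted p = 0.0303). Only Rfc2 and Tk1 lay wholly above DMSO (18.3% of all genes tested did) and Pole wholly below (7.52%).

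In the fit blocked on the replicate number, GSK343 raised 5 genes in actB and lowered 0, where 14.1% of all genes were higher and 5.84% lower: Rfc2, Rpa3 (0.22, adjusted p = 0.00755), Pcna (0.17, adjusted p = 0.0225), Rrm2 (0.32, adjusted p = 0.0366) and Rpa1 (0.18, adjusted p = 0.0411). Without the replicate 2 libraries of every cultured group, 4 passed, all higher: Rfc2, Rpa1 (adjusted p = 0.0269), Pcna (adjusted p = 0.0301) and Ccne1 (adjusted p = 0.0499), where 15.4% of all genes were called.

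In Pb, 0 genes were higher with GSK343 and 1 was lower (limma), where 7.9% of all genes tested were higher and 5.0% lower. An unadjusted p was under 0.05 for 2 of the 50, against 26.9% of all genes tested, and edgeR called 0 higher and 1 lower, against 7.77% and 5.69% of all genes. Summed B cell markers were 753 to 894 RPKM in Pb GSK343 against 922 to 942 with DMSO, and their part in the result was not tested. The gene lower in both was Pole, at 15.7, 15.8 and 16.2 RPKM in Pb DMSO and at 13.8, 13.4 and 13.5 RPKM in Pb GSK343. The groups did not overlap, and the log2 fold change was -0.23 ± 0.04 (adjusted p = 0.00605). In actB it stood at 26.5, 26.4 and 26.3 RPKM with DMSO and at 25.1, 24.6 and 23.6 RPKM with GSK343, a log2 fold change of -0.11 ± 0.04 (adjusted p = 0.127) that passed with edgeR (-0.15, adjusted p = 0.0375) and with median scaling (-0.15, adjusted p = 0.0448).

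Other genes in Pb lay between -0.17 (Ticrr) and 0.29 (Rrm2) on the log2 scale, with intervals of the 50 between -0.39 and 0.66. The median was 0.03 against 0.0031 over all genes, and from -0.01 (without Pb GSK343 replicate 1) to 0.09 (without Pb GSK343 replicate 2) with 1 library left out. Libraries did not overlap for 7 genes, 5 above (18.8% of all genes tested) and 2 below (15.3%). Rrm2, for one, had 192, 174 and 200 RPKM with DMSO and 247, 209 and 237 RPKM with GSK343, and Fen1 had 92.3, 95.4 and 96.9 RPKM and 107, 106 and 108 RPKM, without overlap, although neither passed the test (adjusted p = 0.302 and 0.127).

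In the same blocked fit, 5 genes were higher in Pb with GSK343 and 3 lower, where 13.1% of all genes were higher and 10.2% lower. The higher genes were Pcna (adjusted p = 0.0151), Rpa1 (0.0164), Rrm1 (0.0266), Pola1 (0.0442) and Rrm2 (0.0486), and the lower ones Pole, Rfc5 (0.0336) and Ticrr (0.0463). Without the replicate 2 libraries, Pcna (adjusted p = 0.0297) and Rpa1 (0.0363) were higher and Pole lower, where 17.5% of all genes were called. Pcna itself stood at 298, 263 and 300 RPKM with DMSO and at 336, 306 and 335 RPKM with GSK343.

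The effect of GSK343 was not shown to differ between the cell types for any of the 50 genes. In the test of the difference itself, 0 passed with limma and 0 with edgeR, where 0.248% of all genes tested passed with limma and 0.278% with edgeR, and 1 had an unadjusted p under 0.05, against 9.00% of all genes. Differences ran from -0.21 (Gins1) to 0.23 (Pold2) on the log2 scale. Rfc5 went up in all 3 ratios within a replicate number in actB and down in all 3 in Pb, with a difference of -0.18 ± 0.11 (adjusted p = 0.73). For Rfc2 the difference was -0.15 ± 0.06 (adjusted p = 0.419) and for Pole -0.11 ± 0.06 (adjusted p = 0.666).

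The ratio of Rrm2 to Rrm1 was also higher with GSK343, at 1.72, 1.54 and 1.69 in actB against 1.40, 1.29 and 1.46 with DMSO, and at 3.51, 3.39 and 3.40 in Pb against 3.02, 3.26 and 3.15. Neither pair of groups overlapped. Pola2 over Pola1 was 2.36, 2.26 and 2.15 in Pb with GSK343, below all 3 DMSO values, and overlapped with DMSO in actB. Pold2 over Pold1 lay above DMSO in Pb (2.31, 2.26 and 2.34 against 2.05, 2.19 and 1.79). Chaf1a over Chaf1b lay narrowly below it in Pb (2.99, 2.85 and 3.04 against 3.21, 3.20 and 3.05). Tipin over Timeless lay below DMSO in actB (4.56, 4.05 and 4.72 against 5.46, 4.74 and 4.90). These pairs overlapped in the other cell type, and all other pairs overlapped in both. Of the other replication genes, 0 of 40 passed in actB with GSK343 and 2 were lower in Pb, Pold3 (adjusted p = 0.0279) and Rrm2b (adjusted p = 0.0147). Of the mitosis genes 0 of 20 passed in either cell type. Of all genes tested, 8.2% were higher and 2.16% lower in actB, and 7.9% and 5.0% in Pb. With the block, GSK343 raised 3 and lowered 1 of the other replication genes in actB and raised 3 and lowered 7 in Pb, and of the mitosis genes 1 was higher in actB and 2 lower in Pb. Unadjusted p-values under 0.05 were found for 3 and 10 of the 40 and for 0 and 1 of the 20, against 25.0% and 26.9% of all genes in actB and Pb, and edgeR called 0 and 3 of the 40 and 0 of the 20 in actB and Pb. Over all genes edgeR called 7.32% higher and 3.81% lower in actB, and 7.77% and 5.69% in Pb.

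**Figure D5:**
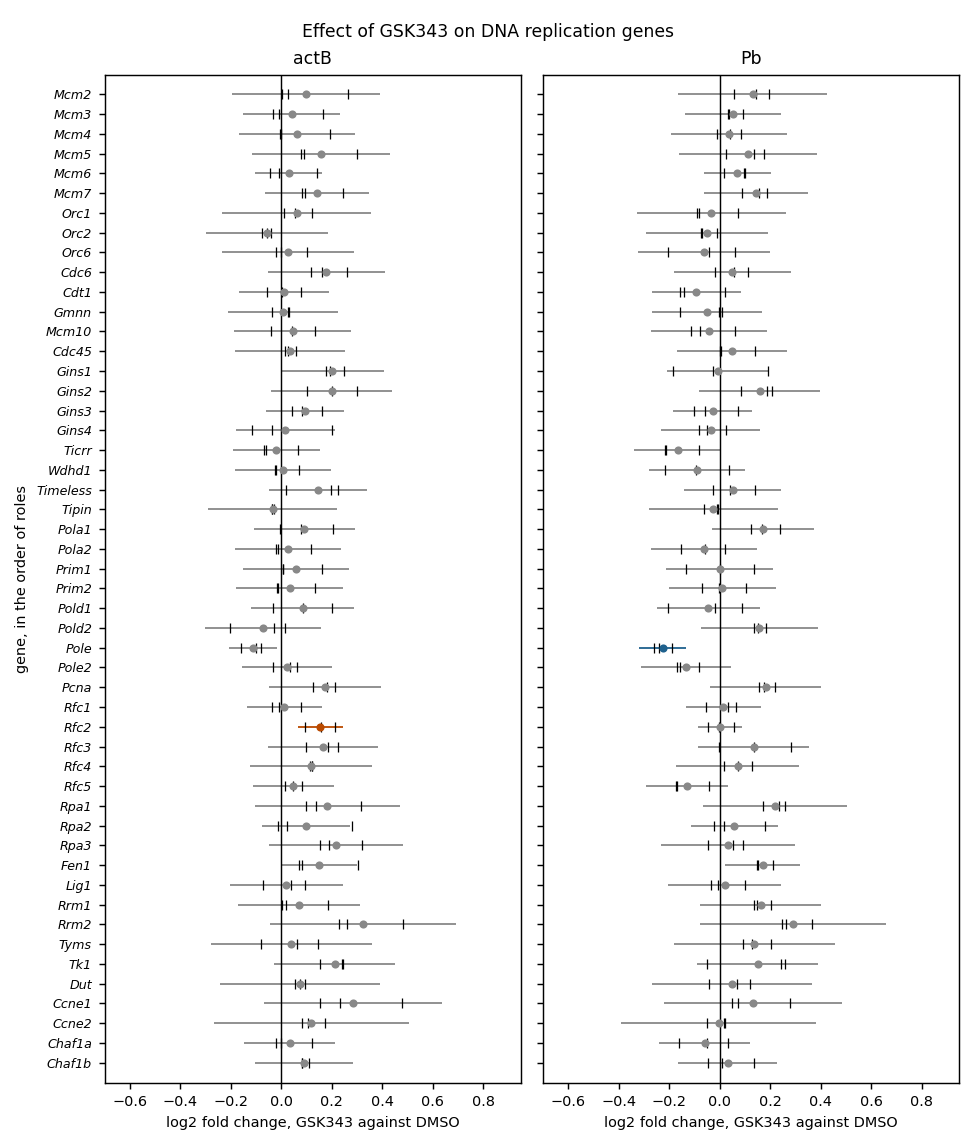
Points are the log2 fold changes of the 50 genes with GSK343 against DMSO in actB (left) and Pb (right) from limma, bars their 95% intervals, and short vertical marks the 3 ratios within a replicate number. The coloured points passed the test, Rfc2 (0.15) in actB and Pole (-0.23) in Pb.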

How the data were processed

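RNA-seq libraries were made from polyA RNA with a stranded kit and sequenced as paired ends. The authors mapped the reads to mm9 with TopHat2, used GenomicRanges to count exon reads per Entrez gene, and deposited values as RPM (reads per 1000000 counted), although the table is named for RPKM. All values (100%) were whole reads within 0.1 read, from which reads were recovered. RPKM was computed here from the deposited gene lengths. Genes without a symbol, 92 in number with at most 0.0905% of reads, were left out.

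The 14 distinct libraries were fitted together with limma 3.58.1 (R 4.3.3; eBayes with a trend) on log2(RPKM + 0.25) for the 11299 genes that reached an RPKM of 1 in 3 or more deposited columns. All adjusted p-values are from this two-sided moderated test, Benjamini-Hochberg adjusted over these genes, unless edgeR 4.0.16 is named, which was run as an alternative (quasi-likelihood test, 11146 genes) on the recovered reads. In simulated data of 11299 genes, limma recovered 46% of the 1.5-fold and 93% of the 2-fold changes made between actB DMSO and nB, and 2.11% of its calls were false. For GSK343 in Pb these were 72%, 95% and 7.73%. The simulation gave every gene the same dispersion, added no effect of the replicate number and changed only a small part of the genes. These rates may therefore not hold for the data. The study names biological replicates, which the labels number, and p-values measure only the spread between these samples.

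The numbers pair the libraries: deviations from group means correlated for the same number (r of 0.158 to 0.502 for number 1, 0.435 to 0.713 for 2 and 0.219 to 0.356 for 3, over 6 pairs each of cultured groups) and between numbers r ran from -0.603 to 0.370 over 36 pairs. The study's methods name no such term, so the block is an alternative. In it the merged nB library carries numbers 1 and 2 in equal parts.

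The 50 genes, the lists of 40 other replication and 20 mitosis genes and the markers were chosen with earlier results of these data known. All 50 genes may be named, and at most 3 of each other list. Alternatives were pseudocounts of 1 and 0.05, no filter, an RPKM of at least 3, median scaling, quantile normalization, edgeR with TMM or RLE factors, the block, the compared groups alone, all 15 columns, and each library left out. Leaving out the replicate 2 libraries was added after the data were seen.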

Additional observations from a re-analysis of the deposited data

How the results depend on the processing

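The counts of genes called higher in actB DMSO and in Pb DMSO against nB, and lower in Pb DMSO against nB or against actB DMSO, stayed within 1.5 times under every setting run, and no called gene changed direction. The count lower in actB DMSO against nB was 2 and became 1 with the compared groups alone and without the replicate 2 libraries, 1 to 3 with 1 library left out, and 3 with median scaling, quantile normalization, edgeR TMM, edgeR RLE and all 15 columns. Higher in Pb DMSO against actB DMSO were 5 to 9 genes with 1 library left out, with the 5 found without actB DMSO replicate 2 or Pb DMSO replicate 3. With GSK343 in actB the count higher was 0 with median scaling, edgeR TMM, edgeR RLE and the compared groups alone, 4 without the replicate 2 libraries and 0 to 2 with 1 library left out, and the count lower was 1 with median scaling, edgeR TMM and edgeR RLE. With the replicate number as a block it was 5 higher in actB and 5 higher and 3 lower in Pb. In Pb the count higher was 1 with the compared groups alone (Fen1, chosen after its values were seen) and 2 without the replicate 2 libraries. Among the 50 genes the block ended no call. The cause of these changes was not tested. Over the 50 genes, 37 of 900 values of Pb DMSO against actB DMSO under the alternatives lost and 32 gained a call, and 5 and 7 of 850 in actB DMSO against nB.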
